A study of Mus musculus with 178 samples.

Results

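Messenger RNA of 10 genes best known from mucosal epithelium was measured in the blood of tumour-bearing mice during immune checkpoint blockade. The genes were Plet1, Muc1, Mal, Prss8, Prss22, Slc28a3, Slc5a1, Slc5a8, Fam84a and Plekhs1. They were 10 of the 55450 gene rows of the count table, and each symbol matched 1 row. They had been chosen from these same data because their change from Day 4 to Day 17 differed between responders and non-responders. The Day 4 and Day 17 levels are therefore given here as a description without a test, and tests were run on Day 9 and Day 24, whose libraries came from the same mice but were not part of that contrast.

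The study followed 45 C57BL/6J mice of both sexes, 6 to 8 weeks old, carrying 4MOSC1 cells, a single carcinogen-derived oral squamous carcinoma line, in the tongue or buccal mucosa. Every mouse received an antibody against PD-1 (clone RMP1-14) by intraperitoneal injection, so no untreated group was available, and 15 mice were labelled responders and 30 non-responders. Whole blood was drawn by retro-orbital puncture through a glass capillary before treatment on Day 4 and during treatment on Days 9, 17 and 24. The 178 libraries analysed here were 15, 15, 14 and 15 from responders and 29, 30, 30 and 30 from non-responders on the 4 days, and a Day 17 library of responder 8 and a Day 4 library of non-responder 23 were not among them. The start of treatment is given as either Day 4, after the blood draw, or Day 7. The Day 17 library of non-responder 24 is labelled a responder in its description but not on the other days of its mouse, and was kept with its mouse.

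The ear tag in the sample titles had 4 digits in 18 mice, of which 11 responded and 7 did not, and 3 digits in 27 mice, of which 4 responded and 23 did not. With this unequal split the tag series and response were partly confounded. The labels say nothing more of the tags. What else differed between the tag series, such as date or cage, is not given in the sources used here.

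Mucosal surfaces of the mouth, eye, airway and gut are covered by epithelial sheets whose cells take up sugars, nucleosides and organic acids, display mucins and secrete or anchor proteases. Circulating blood cells are not known as a main source of most of these transcripts, although Mal, which takes part in vesicle traffic to the apical membrane, is also known from T cells. In a bulk blood library, fewer cells of a type and less RNA per cell cannot be told apart.

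The libraries held 26058944 to 82208651 counts each (median, 51971360.5), of which haemoglobin genes took 68.66% to 88%. The remaining 4535309 to 22174654 counts set the precision for genes as low as these. Levels are given as counts, as counts scaled to library size by TMM (CPM), or as the log2 of CPM with a prior count of 0.5, on which a library with no count lies at -6.81. Intervals and limits cover counting error only. Mice or libraries that lay apart between groups, or that rose or fell, were not counted over all genes. Such counts are therefore a description.

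All 10 genes were annotated as protein-coding in the GRCm38 assembly. Plet1 lay at chr9:50494525-50505482 on the plus strand, Muc1 at chr3:89229057-89233381 on the plus strand, and Plekhs1 at chr19:56461640-56486752 on the plus strand. The other seven genes lay on chromosomes 2 (Mal), 7 (Prss8), 17 (Prss22), 13 (Slc28a3), 5 (Slc5a1), 10 (Slc5a8) and 12 (Fam84a). Plet1 overlapped Plet1os, Prss8 overlapped Kat8, Slc28a3 overlapped Gm3131, and Slc5a1 overlapped 5033423K11Rik on the opposite strand, and Slc5a1 also overlapped Gm15936 on its own strand. Whether the counting used strand is not given in the sources used here, so reads in these overlaps could not be assigned with certainty.

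Because the 10 genes moved together, as described further on, the 250 bases before their annotated starts were searched on both strands for 4 motifs. RefSeq sequence of build GRCm38.p6 was at hand for 8 of the 10 genes, with Fam84a listed under its RefSeq symbol Lratd1, while Prss8 and Prss22 are named only. The 3 upstream windows in which a match was found are shown 5′ to 3′ with the matches in capitals. They span chr9:50494275-50494524 for Plet1, chr3:89228806-89229055 for Muc1 and chr19:56461387-56461636 for Plekhs1, all on the plus strand.
Plet1: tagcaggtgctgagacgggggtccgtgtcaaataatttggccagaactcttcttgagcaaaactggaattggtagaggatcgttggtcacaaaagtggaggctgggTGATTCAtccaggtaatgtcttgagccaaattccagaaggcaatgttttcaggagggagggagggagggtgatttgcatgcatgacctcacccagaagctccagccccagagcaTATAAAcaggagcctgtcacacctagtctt
Muc1: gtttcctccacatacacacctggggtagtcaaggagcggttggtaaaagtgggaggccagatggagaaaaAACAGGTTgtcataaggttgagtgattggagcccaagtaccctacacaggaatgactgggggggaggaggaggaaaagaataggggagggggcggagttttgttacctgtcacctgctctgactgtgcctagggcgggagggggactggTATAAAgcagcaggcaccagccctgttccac
Plekhs1: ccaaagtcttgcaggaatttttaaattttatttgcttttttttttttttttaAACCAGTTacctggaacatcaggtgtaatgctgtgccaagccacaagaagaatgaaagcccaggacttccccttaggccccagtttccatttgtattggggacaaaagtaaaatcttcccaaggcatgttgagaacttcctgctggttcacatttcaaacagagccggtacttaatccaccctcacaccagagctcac
A TATA box (TATAAA) began 30 bases before the start of Plet1 and 31 bases before that of Muc1. This motif was present in 12.4% of 32851 upstream windows of the same length. The grainyhead-like motif AACCNGTT, named after a family of epithelial transcription factors, was found 180 bases before Muc1 and 198 bases before Plekhs1, compared with 1.79% of all windows. The AP-1 motif TGANTCA was found 144 bases before Plet1, compared with 6.75% of all windows. The ETS core CGGAAG was found in none of the 8 windows, compared with 13.6% of all windows. These matches describe the letters in the windows and were not tested for binding or for use.

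The summed level of the 10 genes followed the day and the tag series. On Day 4 the 18 libraries of 4-digit mice held 1 to 9 counts over all 10 genes together, or 0.0166 to 0.117 CPM with a median of 0.0744 CPM. The 26 libraries of 3-digit mice held 29 to 1571 counts, or 0.399 to 23.7 CPM with a median of 9.7 CPM. The ranges did not overlap.

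On Day 9 the 4-digit libraries reached 1.42 to 14 CPM (median, 5.33; n = 18). The 3-digit libraries lay at 0.117 to 144 CPM (median, 44.2; n = 27). Non-responders 18 and 6 marked the lower end of the 3-digit series with 8 and 15 counts and 3 detected genes each, and non-responder 12 the upper end with 11901 counts. In these 3 libraries, in that order, the total counts were 53293412, 55335976 and 58270733. Without haemoglobin genes they were 11164459, 14763138 and 13162690, and the part of depth in the spread was not tested.

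On Day 17 the order of the tag series was turned. The 4-digit libraries held 5.66 to 41 CPM (median, 16; n = 17) and the 3-digit libraries 0.153 to 9.53 CPM (median, 2.72; n = 27). On Day 24 the ranges lay over each other, at 3.7 to 58 CPM (median, 16.4; n = 18) in the 4-digit series and 1.46 to 57 CPM (median, 8.74; n = 27) in the 3-digit series.

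Within a tag series, responders and non-responders lay closer together. On Day 9 the 3-digit responders had a median of 77.3 CPM (34.8 to 111; n = 4) and the 3-digit non-responders 43.8 CPM (0.117 to 144; n = 23). The 4-digit responders had 4.18 CPM (1.42 to 14; n = 11) and the 4-digit non-responders 7.18 CPM (2.53 to 10.8; n = 7). Responders thus had the higher median in the 3-digit series and the lower median in the 4-digit series. The median haemoglobin share on Day 9 was 78.1% in the 3-digit and 82.8% in the 4-digit series, and its part in the difference was not tested.

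**Figure D1:**
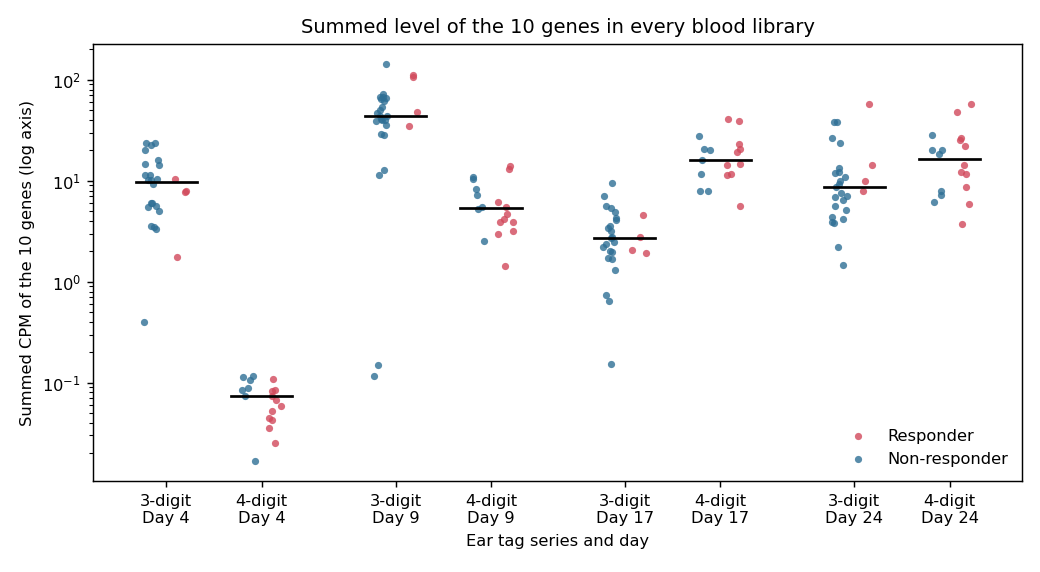
Summed CPM of the 10 genes in each of the 178 blood libraries on a log axis, by day and ear tag series, with responders in red, non-responders in blue and the median of the libraries of each tag series and day as a bar. The 4-digit libraries lie at or below 0.117 CPM on Day 4 and above most 3-digit libraries on Day 17.

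Plet1, a GPI-anchored surface protein known from epithelial progenitor cells, was the most abundant of the 10 per transcript length in the 3-digit libraries of Day 9, with a median of 4.92 TPM. Prss22 (2.9 TPM), Muc1 (1.59 TPM), Plekhs1 (1.34 TPM), Prss8 (1.15 TPM) and Mal (1.14 TPM) came next. Fam84a (0.79 TPM), Slc5a1 (0.52 TPM), Slc28a3 (0.16 TPM) and Slc5a8 (0.07 TPM) were lowest. In the 4-digit libraries of that day the medians ran from 0.405 TPM for Plet1 to 0.01 TPM for Slc28a3 and Slc5a8.

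On Day 4 Plet1 gave 1 count in total over the 18 libraries of 4-digit mice and 5839 counts over the 26 libraries of 3-digit mice, where no library was at 0. The 3-digit responders 1 to 4 had 80, 58, 83 and 46 Plet1 counts, and the 22 non-responders of that series had 11 to 514 (median, 254.5). The pooled CPM ratio of the 3-digit to the 4-digit series was 3040 (95% counting interval, 545 to 120000). On Day 9 Plet1 had 2152, 1195, 380 and 367 counts in 3-digit responders 1 to 4, a median of 789 (0 to 3742) in the 23 3-digit non-responders, 62 (6 to 165) in the 11 4-digit responders and 94 (33 to 196) in the 7 4-digit non-responders. All 4 of the 3-digit responders lay above all 11 of the 4-digit responders.

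On Day 17 Plet1 had 24, 21, 31 and 128 counts in the 3-digit responders and 43 (1 to 143) in the 3-digit non-responders. The 4-digit responders had 188 (70 to 492; n = 10) and the 4-digit non-responders 151 (93 to 512; n = 7). In log2 CPM the 10 4-digit responders lay above all 4 of the 3-digit responders. On Day 24 the 3-digit responders had 356, 134, 172 and 246 counts, within the 109 to 663 (median, 353) of the 4-digit responders. The non-responders of that day had 137 (21 to 491) with 3-digit and 149 (27 to 548) with 4-digit tags.

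**Figure D2:**
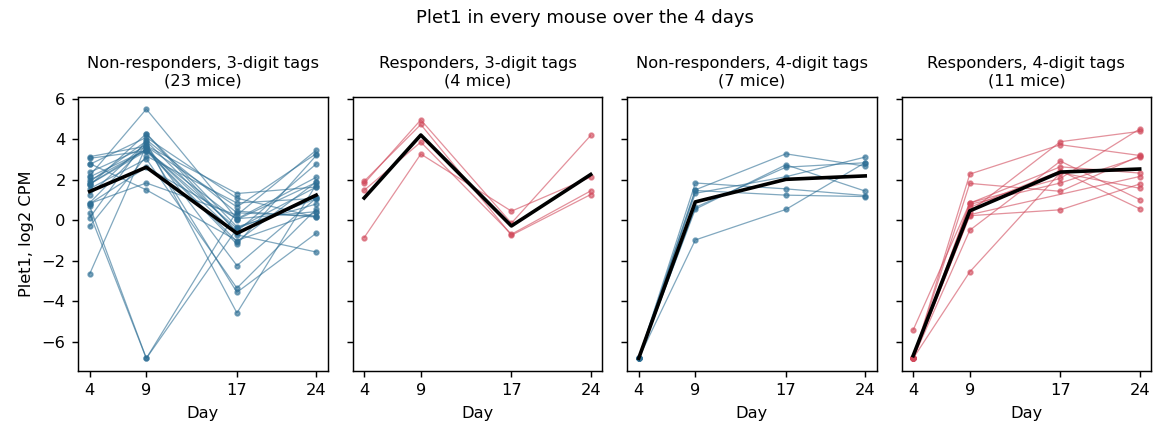
Plet1 log2 CPM in every mouse over the 4 days, by response and ear tag series, with the group mean in black and the floor of a library with no count at -6.81. The 3-digit mice reach their highest group mean on Day 9 and their lowest on Day 17, whereas the 4-digit mice start near the floor and stay high from Day 17.

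The other genes of the set were at or near 0 on Day 4 in the same libraries. Prss8 (prostasin), a membrane-anchored serine protease that activates the epithelial sodium channel, and Prss22, a tryptase-like serine protease of airway epithelium, were at 0 counts in all 18 of the 4-digit libraries. In the 3-digit series they had 979 and 1700 counts, so their pooled CPM was at least 170-fold and at least 295-fold higher, taking 3 counts over the group as the limit. Slc28a3, a concentrative nucleoside transporter, Slc5a1, the sodium/glucose cotransporter of absorptive epithelium, and Slc5a8, a sodium-coupled carrier of monocarboxylates such as lactate, were also at 0 in all 18 libraries. They were at least 81-fold, at least 275-fold and at least 70.6-fold higher in the 3-digit series.

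Mal had 5 counts against 2184 and Fam84a 3 counts against 1625, the latter a ratio of 282 (95% counting interval, 96.2 to 1370). Plekhs1, a protein with a pleckstrin homology domain, had 15 counts against 1545, a ratio of 53.6 (32.4 to 96). Muc1, the transmembrane mucin of apical cell surfaces, was the exception with counts in 17 of the 18 4-digit libraries, 47 in total against 997, a ratio of 11 (8.23 to 15.1).

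The contrast that chose the genes was the change from Day 4 to Day 17 in responders minus that in non-responders. Across all libraries it lay between 3.24 (Muc1) and 4.97 (Slc28a3) on the log2 scale, with a median of 3.99. These values chose the genes, so they are a description and no call is counted. Within the 4-digit mice the same differences ran from -0.353 (Plet1) to 2.74 (Mal), with a median of 0.39, 7 positive and 3 negative. Most Day 4 levels of these mice lay at or near the floor of a library with no count. Within the 3-digit mice they ran from 0.263 (Mal) to 2.23 (Slc28a3), with a median of 1.03. The SD of the mean log2 CPM of the 10 genes between libraries of a group was 2.12 on those days.

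**Figure D3:**
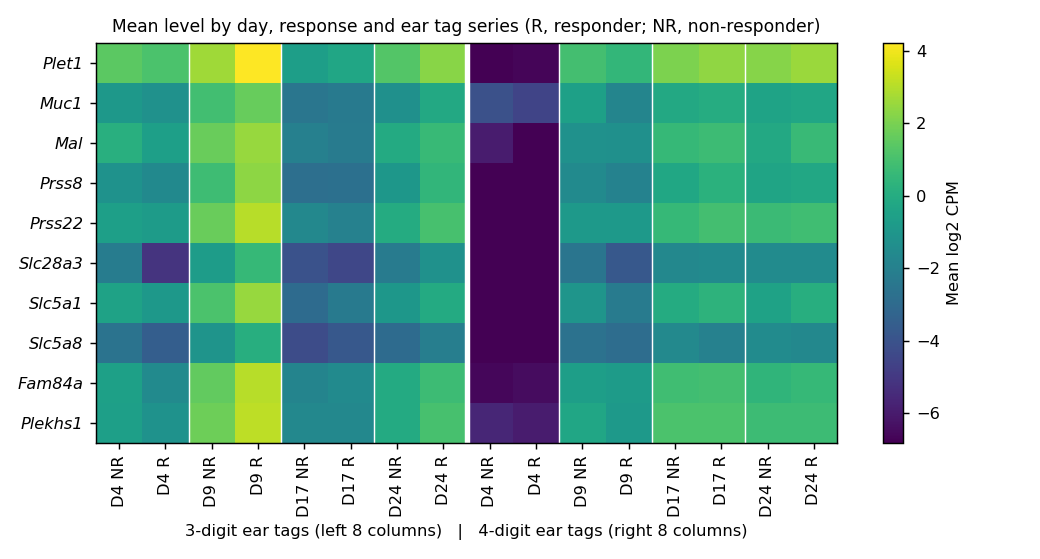
Mean log2 CPM of each gene by day, response (R, responder; NR, non-responder) and ear tag series, with darker cells for lower levels. The 4-digit libraries of Day 4 are dark for every gene, Muc1 (-4.56 and -4.07) less so than the others, and the brightest cell is Plet1 in the 3-digit responders of Day 9.

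On Day 9, the early on-treatment sample, the response groups were compared across all 45 libraries. None of the 10 genes passed the edgeR quasi-likelihood test with Benjamini-Hochberg adjustment, against 13.4% of 12608 genes tested, and none had an unadjusted p under 0.05. The log2 difference of responders minus non-responders ran from -0.93 ± 0.54 (SE) for Mal to -0.27 ± 0.53 for Prss8, with a median of -0.50. The adjusted p from edgeR ran from 0.282 (Muc1) to 0.824 (Prss8). Muc1 had a median of 16 counts in responders (2 to 362) and 133 in non-responders (2 to 642), and the groups overlapped. DESeq2 also called 0 of the 10. The median of -0.50 was -0.962 without responder 1 and -0.861 without responder 2, which are among the 4 3-digit responders.

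Within the tag series the values were as follows. Among the 27 3-digit mice the median log2 difference was 0.755 (0.292 to 1.05). Among the 18 4-digit mice it was -0.266 over the 8 genes tested, from -1.41 (Muc1, adjusted p = 0.247) to 0.273 (Prss22), with 6 negative and 2 positive. No gene was called in either, and only Muc1 among the 4-digit mice had an unadjusted p under 0.05 (0.00124 from edgeR). With the tag series as a covariate the median was 0.321 and no gene was called. When deposited TPM values were tested with limma instead, all 10 genes were called lower in responders at both pseudocounts (0.1 and 1). However, 11372 and 11130 of the 12600 genes tested were called in those fits, counted without regard to direction. The median over all genes was shifted by -0.592 and -0.256. The median of the 10 genes in those fits was -1.25 and -0.44.

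On Day 24 all 10 differences were positive, from 0.47 ± 0.35 (Slc5a8) to 1.04 ± 0.35 (Plet1), with a median of 0.66, but none passed the edgeR test, against 8.55% of 12469 genes. The adjusted p of Plet1 was 0.0549 and the highest was 0.437 (Slc5a8), and 2 genes, Plet1 and Slc5a1, had an unadjusted p under 0.05. DESeq2 called 2 of the 10, and edgeR called Plet1 alone when the Day 24 library of non-responder 29 was left out (adjusted p = 0.0284). The share of all genes called in those alternative fits is not given here, so these counts are a description. Within the tag series no gene was called, and the median was 0.302 among the 4-digit and 0.857 among the 3-digit mice.

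The changes from Day 9 to Day 24 were then compared between the response groups. The difference was positive for every gene, from 0.93 ± 0.68 (Prss8) to 1.54 ± 0.64 (Plet1), with a median of 1.19, or 1.85 with the mouse as a replicate block. None was called by edgeR, against 0.434% of 13142 genes, and 4 had an unadjusted p under 0.05. The lowest adjusted p was 0.166 (Muc1). Within the 3-digit mice the median of these differences was 0.063 and within the 4-digit mice 0.584. No gene was called in either by edgeR. Unadjusted p from edgeR was under 0.05 only in the 4-digit mice, for Muc1 (0.0143) and Slc28a3 (0.0471).

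In non-responders, all 10 genes fell from Day 9 to Day 24 in the edgeR test, against 22.1% of 12441 genes called lower. The fall was largest for Slc5a1, at -2.15 ± 0.37 (adjusted p = 2.12e-06). Slc5a1 went from a median of 179.5 counts (0 to 1367; n = 30) on Day 9 to 27.5 (6 to 124; n = 30) on Day 24. In the 23 3-digit mice its median was 223 (0 to 1367) on Day 9 and 28 (8 to 118) on Day 24, and in the 7 4-digit mice 20 (9 to 52) and 22 (6 to 124). Muc1 changed by -1.78 ± 0.31 (adjusted p = 2.89e-06), Prss22 by -1.77 ± 0.36 (5.41e-05) and Plet1 by -1.44 ± 0.35 (0.000538), and the median over the 10 was -1.64. The fall was that of the 3-digit mice. In the 23 3-digit non-responders alone, all 10 genes fell, with a median of -2.03, against 23.7% of 12454 genes called lower, and each gene was higher on Day 24 in only 3 or 4 of the 23 mice.

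In the 7 4-digit non-responders alone, 9 of the 10 changes were positive, with a median of 1.10. Prss22 rose by 1.56 ± 0.40 (adjusted p = 0.0377), the only gene of the 10 called, against 1.07% of 12015 genes called higher. Muc1 had the only negative value, at -0.09 ± 0.47. Prss22 was higher on Day 24 in 6 of these 7 mice and Muc1 in 3.

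In responders, no gene was called from Day 9 to Day 24 by edgeR, against 28.2% of 11953 genes, and none had an unadjusted p under 0.05. DESeq2 called 0 as well. The fitted differences ran from -0.67 ± 0.60 (Slc5a1) to 0.11 ± 0.54 (Plet1), of which 9 were negative. The change in mean log2 CPM was positive for all 10 genes, from 0.29 (Slc5a8) to 1.19 (Slc28a3), and each gene was higher on Day 24 in 9 to 11 of the 15 mice. With the mouse as a replicate block the fitted differences ran from -0.06 to 0.81 with a median of 0.40, so no direction is read from the pooled responders. The tag series went apart here too. In the 11 4-digit responders all 8 genes that passed the filter on low counts rose, from 1.40 ± 0.41 (Fam84a) to 2.16 ± 0.46 (Plet1), with a median of 1.77 and adjusted p of 0.00111 to 0.0128, against 13.8% of 11866 genes called higher. Slc28a3 and Slc5a8 did not pass the filter and were not tested there, and they were higher on Day 24 in 11 and 10 of the 11 mice.

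In the 4 3-digit responders every gene was lower on Day 24 in 4 of 4 mice, from -1.69 ± 0.66 (Plet1) to -2.73 ± 0.60 (Slc5a1). None passed the adjusted test in these 4 mice (adjusted p, 0.0635 to 0.327), although all 10 had an unadjusted p under 0.05, and 0.233% of 12026 genes were called lower.

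The tag series themselves were compared within each response group, so that response was held constant. In non-responders of Day 9, 9 of the 10 genes were called lower in the 7 4-digit than in the 23 3-digit mice, against 3.49% of 13080 genes called lower. They include Slc28a3 and Slc5a8, which did not pass the filter on low counts among the 18 4-digit libraries of that day and entered through the 3-digit mice in which they were high. Mal was lower by -3.43 ± 0.64 on the log2 scale (adjusted p = 0.00209), Prss22 by -3.34 ± 0.71 (0.00419), Prss8 by -2.97 ± 0.66 (0.0054), Fam84a by -2.86 ± 0.64 (0.0056) and Slc5a1 by -2.79 ± 0.68 (0.00935). Mal had a median of 335 counts (0 to 924) in the 3-digit and 18 (7 to 46) in the 4-digit mice, and 21 of the 23 3-digit libraries lay above all 7 of the 4-digit ones. Muc1 was the gene not called, at -1.54 ± 0.51 (adjusted p = 0.0528). The median over the 10 was -2.71, beside -0.006 over all genes.

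In responders of Day 9, a comparison added after the data had been seen, all 10 genes were called lower in the 11 4-digit than in the 4 3-digit mice, against 1.73% of 12291 genes. Slc28a3 (-4.41 ± 0.37) and Slc5a8 (-2.81 ± 0.40) did not pass the filter on low counts in the 4-digit mice alone and entered this comparison through the 4 3-digit responders in which they were high. The other eight genes, which passed it also in the 4-digit mice, ran from -3.47 ± 0.35 (Muc1; adjusted p = 3.46e-06) to -4.37 ± 0.46 (Slc5a1; adjusted p = 4.92e-06). Slc28a3 had 26 to 186 counts (median, 69) in the 3-digit and 0 to 5 counts (median, 3) in the 4-digit responders. For every gene all 4 of the 3-digit responders lay above all 11 of the 4-digit responders in log2 CPM. How many of all genes part the same mice was not counted, and the 10 genes moved together, so this is a description.

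On Day 24 no gene differed between the tag series in the edgeR test. In non-responders the differences ran from 0.02 ± 0.51 (Mal) to 0.88 ± 0.48 (Slc5a8), with adjusted p of 0.346 to 0.999, against 4.61% of 12724 genes called. In responders they ran from -0.61 ± 0.64 (Prss8) to 0.63 ± 0.54 (Slc5a8), against 0.00794% of 12588 genes called. No gene had an unadjusted p under 0.05 in either, and DESeq2 called none.

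The change of the tag series difference from Day 9 to Day 24 was tested as an interaction, also added after the data had been seen and resting on the same libraries. In non-responders 7 of the 10 genes were called higher, against 1.12% of 13529 genes, from 3.02 ± 0.81 (Fam84a) to 3.76 ± 0.82 (Prss22). Slc28a3, Slc5a8 and Muc1 missed the threshold, with adjusted p of 0.0703, 0.0525 and 0.147. With the mouse as a replicate block 1 of the 10 was called, while the median stayed near the unblocked 3.10 at 3.04, and without the Day 9 libraries of non-responders 6 and 18 all 10 were called. In responders all 10 were called higher, against 1.28% of 12947 genes, from 3.38 ± 0.78 (Fam84a) to 4.80 ± 0.89 (Slc5a1). They include Slc28a3 and Slc5a8, which did not pass the filter in the 4-digit responders alone and entered through the 3-digit responders. That count was 2 without responder 2 and 6 without responder 3, which are among the 4 3-digit responders.

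**Figure D4:**
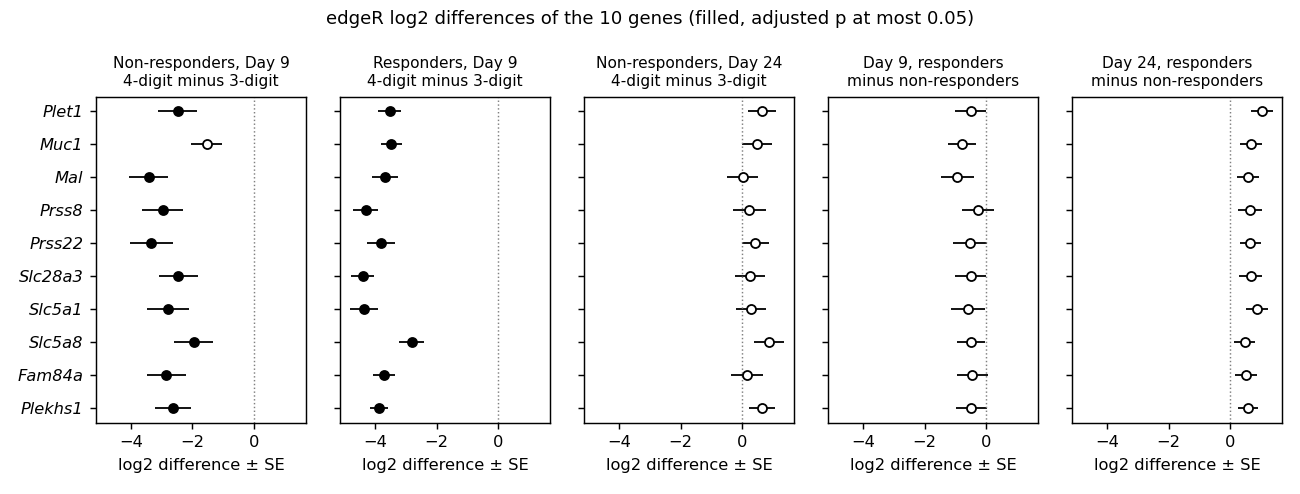
Log2 difference ± SE of each gene from edgeR in 5 comparisons, with filled points at an adjusted p of at most 0.05. The tag series differ on Day 9 in both response groups, where 9 and 10 of the points are filled, and no point is filled on Day 24 or between the response groups.

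The 10 genes moved together from library to library. Over the 90 libraries of Days 9 and 24 the correlation of log2 CPM between pairs of them ran from r = 0.76 (Muc1 and Slc5a8) to r = 0.967 (Plet1 and Prss22), with a median of 0.915 over the 45 pairs. After centring within response, tag series and day the range was 0.678 to 0.97 with a median of 0.883. Without centring, but leaving out the 2 libraries farthest from the median, it was 0.721 to 0.961. These points share mice, libraries and depth, and the values are a description.

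The genes whose levels were most like the mean of the 10 over those 90 libraries, among 13142 compared, were Slc6a14 (r = 0.983), Prss27 (0.982), Gm9573 (0.982), Epn3 (0.974), AI661453 (0.973), Emp1 (0.971), 2310007B03Rik (0.971), Muc4 (0.966), Clca4c-ps (0.965) and Csta1 (0.964). Slc6a14 is an amino acid transporter, Prss27 a serine protease and Muc4 a transmembrane mucin. Over all 178 libraries 7 of these 10 were again among the closest. Slc6a14 had a median of 0 counts in the 4-digit and 96 in the 3-digit libraries of Day 4, and 15.5 and 638 on Day 9. Muc4 had 0 and 205 on Day 4, and 35 and 741 on Day 9. Emp1, an epithelial membrane protein found in many tissues, differed from them in its median of 31 counts in the 4-digit libraries of Day 4.

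**Figure D5:**
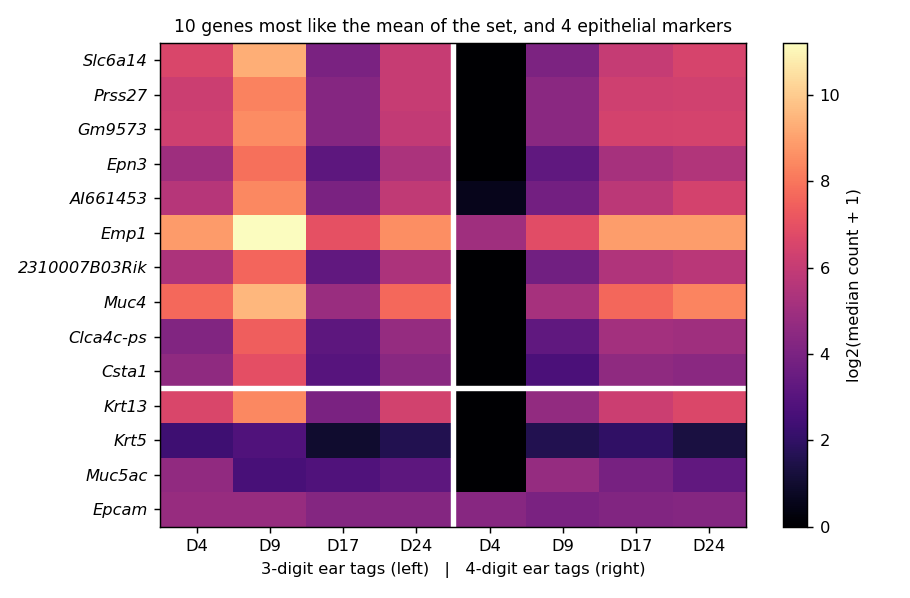
Log2 of the median count plus 1, by day and ear tag series, for the 10 genes most like the set and 4 epithelial markers. Slc6a14 and Muc4 are at 0 in the 4-digit libraries of Day 4 and highest in the 3-digit libraries of Day 9, and Krt13 is at 0 and highest in the same columns.

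Other genes of the same pathways and of epithelium were read from lists that leave out the 10 genes, in the comparison of the tag series among non-responders on Day 9. In that comparison 3.49% of 13080 genes were called lower and 5.57% higher. A list gene could pass the filter on low counts through the higher group alone. These counts are therefore a description, and nothing is read from them against those shares. Of the list of prostasin and matriptase pathway genes, 4 of 10 tested were lower in the 4-digit mice, among them Prss27 (-2.99 ± 0.63) and Tmprss11e (-6.70 ± 1.45). Of the membrane mucins, 2 of 4 were lower, namely Muc20 (-2.96 ± 0.62) and Muc4 (-3.08 ± 0.65). Of the MAL and MARVEL family, 2 of 10 were lower, Mall (-3.47 ± 0.84) and Mal2 (-2.59 ± 0.84). Of the SLC5 and nucleoside transporters, none of 7 was lower and Slc5a3, a myo-inositol carrier, was higher (0.59 ± 0.17). The list medians were -1.38, -1.48, -0.05 and -0.06.

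The epithelial lists were read in the same way, as a description beside the 3.49% of 13080 genes called lower. Stratified squamous genes were lower in 6 of 13 tested, with a median of -3.28. Among them were Krt13 (-2.84 ± 0.69), a keratin of oral and other moist squamous epithelium, and Krt6b (-3.70 ± 0.85). Pan-epithelial genes were lower in 5 of 15, among them Krt7 (-2.99 ± 0.62) and Krt19 (-3.35 ± 0.76). Secretory and goblet cell genes were lower in 2 of 4, Pigr (-2.18 ± 0.48) and Fcgbp (-3.12 ± 0.95). Cornified layer genes were lower in 2 of 5, Asprv1 (-1.86 ± 0.32) and Crct1 (-3.09 ± 0.89). Of the fibroblast and vessel genes Col3a1 was lower (-3.37 ± 1.05; 1 of 8). Their summed level on Day 9 ran from 30.2 to 203 CPM in 3-digit and 32 to 63 CPM in 4-digit non-responders.

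The defining markers named here gave a mixed picture. Krt13 had a median of 347 counts in the 3-digit and 24.5 in the 4-digit libraries of Day 9, and on Day 4 it was at 0 in all 18 of the 4-digit libraries with a median of 96 in the 3-digit ones. Krt5, the keratin of basal cells, had medians of 6 and 2 on Day 9, with a highest value of 1723 in the 3-digit series. Epcam, a general epithelial adhesion protein, had medians of 27 and 15 counts, or 0.368 CPM in both series, and fell from Day 9 to Day 24 in non-responders (-0.88 ± 0.27, adjusted p = 0.00546 from edgeR). Cdh1 had medians of 79 and 70.5 counts, and the cornified markers Lor and Flg were at 0 in all of these Day 9 libraries. Muc5ac, a secreted mucin of goblet cells, had a median of 5 in the 3-digit and 25.5 in the 4-digit libraries of Day 9, the opposite order to the 10 genes, but on Day 4 it was at 0 in all 18 of the 4-digit libraries with a median of 23.5 in the 3-digit ones.

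Genes of lipid glands around the eye were mostly near 0 in the 3-digit libraries. Of the meibomian and Harderian list, 5 genes passed the filter in non-responders of Day 9. Scd3 (5.93 ± 0.70), Elovl3 (5.19 ± 0.69), Far2 (3.27 ± 0.40) and Acsbg1 (0.76 ± 0.22) were called higher in the 4-digit mice. Of all 13080 genes, 5.57% were called higher. A gene of this list could pass the filter through the 4-digit mice alone, so nothing is read from these calls against that share. In responders only Scd3 (2.52 ± 1.60) and Acsbg1 (0.13 ± 0.20) passed the filter, and neither was called. The summed level of that list was 0.878 to 2.76 CPM in the 3-digit and 1.44 to 42.6 CPM in the 4-digit non-responders. Elovl3 was at 0 in 21 of the 27 3-digit libraries and in 8 of the 18 4-digit libraries, with at most 182 counts, so it passed the filter through the latter. No gene of the cornea and lens, lacrimal gland, intestinal absorptive cell or skeletal muscle lists was called in these non-responders.

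Among the blood cell lists, red cell precursor genes were higher in the 4-digit non-responders in 7 of 9 (median, 0.84) and basophil and eosinophil genes in 5 of 6 (median, 0.96), against the 5.57% of all genes called higher. Ltf, lactoferrin, which is made by neutrophil precursors and by exocrine glands, was the only 1 of 12 neutrophil genes called (-4.11 ± 0.57). Monocyte, T cell, B cell and platelet genes had no call, NK cell genes 1 lower (Klrb1c, -0.47), immediate early genes 1 lower (Junb, -0.40), and dendritic cell genes 1 higher (Cd209a, 0.59) and 2 lower (Itgax, -0.46, and Siglech, -0.81). The part of these cells, glands and epithelia in the levels of the 10 genes was not tested.

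In responders of Day 9, where 1.73% of all genes were called lower, 6 of 10 stratified squamous genes, 4 of 11 pan-epithelial genes, 2 of 6 prostasin and matriptase pathway genes and 2 of 4 membrane mucins were called lower in 4-digit mice. The defining squamous markers Krt5 (-3.22 ± 0.74), Krt14 (-5.27 ± 0.69) and Krt13 (-3.65 ± 0.43) were among those called. The pan-epithelial marker Krt8 (-0.37 ± 0.76) was not called. Here too a gene could pass the filter through the 4 3-digit responders alone, so these counts are a description and nothing is read from them against that share. Fibroblast and vessel genes were lower in 4 of 8, with a summed level of 48.7 to 90 CPM in the 4 3-digit and 28.5 to 56.5 CPM in the 11 4-digit responders, and Ltf was again lower (1 of 11 neutrophil genes). Anpep, an aminopeptidase of the intestinal brush border that myeloid cells also carry, was lower (-2.82 ± 0.31; 1 of 2 intestinal absorptive cell genes), as were Asprv1 (-2.10 ± 0.23; 1 of 4 cornified layer genes), Pigr (-2.97 ± 0.37; 1 of 3 secretory and goblet cell genes), Mall (-3.01 ± 0.63; 1 of 9 of the MAL and MARVEL family) and Egr1 (-1.36 ± 0.31; 1 of 8 immediate early genes). Red cell precursor genes had no call there (0 of 9). Between the response groups on Day 9, no gene of any epithelial, pathway or eye region list was called. Red cell precursor genes were higher in responders in 9 of 9 tested and platelet genes in 5 of 8 in that comparison, against 9.43% of all genes called higher, beside 0 of the 10 mucosal genes. The tag series was not held constant in that comparison, so for these lists tag series and response are not told apart.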

How the data were processed

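Blood polyA RNA from 178 libraries of 45 mice was analysed. The authors deposited a table of estimated counts per gene, in which 3.14% of all values and 0% of those of the 10 genes were not whole, and these were rounded. The authors also deposited TPM values, which are scaled to a fixed total per library with the haemoglobin genes included. The submitters' processing notes name STAR and mm10. No column was left unused (0). R 4.3.3 was used. Genes were filtered with filterByExpr, scaled by TMM and tested with the quasi-likelihood F test of edgeR 4.0.16 on the whole table, with Benjamini-Hochberg adjustment and a threshold of 0.05. DESeq2 1.42.0 and limma 3.58.1 (trend, on log2 of TPM plus 0.1 or 1) served as alternatives. Percentages of genes called refer to all genes tested in that fit. The 10 genes, the 24 lists and the tests were chosen with earlier results of these data known. The text names the 10 genes, some of the first 3 genes of a list, up to 2 called genes per list and direction, and the 10 genes most correlated with their scaled mean. Other called genes of lists with few calls were named after their values were seen. Libraries of a mouse share an ear tag and so come from the same animal. Their deviations from group means between Day 9 and Day 24 correlated with a median of 0.0336 over 45 mice (range, -0.181 to 0.406; 14 above 0.1; 13142 genes).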

Additional observations from a re-analysis of the deposited data

Results flagged for a closer look

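In 7 of 90 checks of groups of 4 to 10 libraries, the value of a gene stood far from the rest of its group. Chance alone marks about 1 in 20 groups, but these checks run over genes that move together and 6 of the 7 values are from Day 4 or Day 17, whose levels chose the genes, so they are given as a description. On Day 4 the library of 3-digit responder 4 was low for Plet1 (log2 CPM of -0.846 with 46 counts, the others 1.49 to 1.94) and for Prss22 (-2.33 with 16 counts, the others -0.348 to -0.0867). In the 4-digit non-responders of Day 4 Fam84a lay at -5.41 in non-responder 28, which is 1 count beside 0 in the others. On Day 17 responder 11 was low for Slc28a3 (-4.33 with 2 counts) and Slc5a8 (-5.09 with 1 count), and responder 3 for Muc1 (-3.5 with 4 counts). On Day 24 Muc1 was high in responder 1 (1.75 with 65 counts, the others -0.961 to -0.698). These rest on few counts in most cases.

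The change from Day 9 to Day 24 differed between the tag series by the interaction test of edgeR. In non-responders the log2 difference of the 4-digit minus the 3-digit change was 3.12 for Plet1, 3.45 for Mal, 3.21 for Prss8, 3.76 for Prss22, 3.07 for Slc5a1, 3.02 for Fam84a and 3.27 for Plekhs1. In responders it was 3.85 for Plet1, 3.42 for Muc1, 3.9 for Mal, 3.71 for Prss8, 3.6 for Prss22, 4.13 for Slc28a3, 4.8 for Slc5a1, 3.46 for Slc5a8, 3.38 for Fam84a and 3.72 for Plekhs1. With the mouse as a replicate block 1 of the 10 genes was called in non-responders, and without responder 2 the count in responders was 2 of 10.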

How the results depend on the processing

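The comparisons of the tag series on Day 9 and the fall in non-responders kept their direction under DESeq2, removal of haemoglobin genes before scaling, a looser filter and both TPM fits, with 8 to 10 genes called. For most alternative fits of this section the share of all genes called is not given, so their counts of calls are a description. Leaving out each mouse gave 8 to 10 calls in non-responders and 10 in responders on Day 9, 0 in responders on Day 24, and 0 between the response groups on Day 9. Between the response groups on Day 24 it gave 0 to 1, with Plet1 called in 15 of 45 fits (without responders 2, 3, 4, 5, 6, 9, 11 or 12, or non-responders 4, 5, 7, 25, 26, 28 or 29). DESeq2 called 2 there, and leaving out the Day 24 library of non-responder 29 gave 1. Between the response groups on Day 9 the TPM fits called 10 and 10, beside 11372 and 11130 of the 12600 genes tested. The tag series interaction in responders gave 2 to 10 calls when a mouse was left out, 2 without responder 2 and 6 without responder 3. With the mouse as a replicate block the interaction in non-responders gave 1 call, Fam84a turned to 0.176 from Day 9 to Day 24 in responders, where the median over the 10 genes went from -0.53 to 0.40, and no other count of calls was moved. The changes within a tag series, the tag series comparisons in responders and the interactions were chosen after seeing the data. With 4-digit tags alone the change in non-responders gave 1 call and turned sign for Plet1 (1.23), Mal (1.37), Prss8 (1.28), Prss22 (1.56), Slc28a3 (0.967), Slc5a1 (0.552), Slc5a8 (0.886), Fam84a (1.06) and Plekhs1 (1.14). In responders it gave 8 calls, with Fam84a at 1.4, and with 3-digit tags alone Plet1 was at -1.69. Between the response groups on Day 9, Prss8 turned to 0.663 with the tag series as a covariate, and with 3-digit tags alone Prss8 was at 1.05 and Muc1 at 0.501. On Day 24, Slc5a8 was at -0.0449 with 4-digit tags alone. The contrast that chose the genes had a median of 0.39 with 4-digit and 1.03 with 3-digit tags. It was 4.12 with the Day 17 library of non-responder 24 as a responder. These values are a description, and in 4-digit mice most Day 4 levels lay at or near the floor. Values near 0 also turned sign. For Fam84a in responders this was 0.0057 with log2(TPM + 0.1). For Mal between the tag series of Day 24 non-responders it was -0.111 (DESeq2), -0.133 and -0.0219 (TPM). For Muc1 in Day 24 responders it was 0.0212 with log2(TPM + 1) and -0.354 to 0.863 when a mouse was left out. Over all genes and comparisons computed, signs turned in 2 cases with DESeq2, 15 and 8 with TPM, and 8 with the mouse as a block. They turned in 11 cases with the tag series as a covariate and 0 with haemoglobin genes removed. With 4-digit tags alone signs turned in 19 cases, with 3-digit tags alone in 14, and when a mouse was left out in 11. Where the smaller sets of mice do not set a value by construction, the cause was not tested. The lowest genes, with 0 to 5 counts a library, limit what can be told on Day 4 and in 4-digit mice on Day 9.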
